A study of Homo sapiens with 8 samples.

Results

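The measurements described here are the m6A peaks on 10 genes of the Notch pathway: the receptors NOTCH1, NOTCH2 and NOTCH3, the ligands JAG1 and JAG2, the DNA-binding factor RBPJ, its coactivators MAML1 and MAML2 and its corepressor SPEN, and the target gene HES1. The genes were chosen with earlier results of these data known. All peaks listed under these gene names were taken, with no choice among the peaks on their values. They number 34 of 22626 peaks, on 10 of 12009 genes with a peak. The series compares HCT116 cells, a human colorectal cancer line, with a stable knockdown of ALKBH5 (hairpin sh_AL1, labelled shALKBH5 here) against cells with the hairpin sh_NC (shNC here, genotype WT in the labels). Fragments of poly(A) RNA that an anti-m6A antibody pulled down (the IP) were sequenced beside fragments that were not selected (the input), with 2 libraries in each of 4 groups. Whether the stable lines were single clones, and whether the libraries of a group came from separate cultures, was not given in the sources used here.

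N6-methyladenosine (m6A) is a base modification of messenger RNA that ALKBH5 removes. Notch receptors are cut within the membrane after they bind a Jagged or Delta ligand on a neighbouring cell. The freed intracellular part enters the nucleus and joins RBPJ and a Mastermind protein (MAML) to switch on genes such as HES1. Without it, RBPJ sits with corepressors that include SPEN. In the intestinal epithelium the pathway is known for keeping progenitor cells from becoming secretory cells.

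Each peak carries 2 measurements made by the authors. Enrichment is the fold of IP over input at the peak, listed with a log10 p of the peak. The log2 fold compares the arms, and a peak is called here where its false discovery rate (FDR) is at most 0.05. The numerator of this fold, and any correction of it for the level of the transcript, was not given in the sources used here. Folds are therefore given as positive or negative, and m6A and transcript level cannot be told apart in them, nor can fewer cells and less RNA per cell in these bulk libraries. No value here has a replicate error, because libraries were not analysed one by one, and the depth is unknown. Peaks are numbered from 5′ to 3′ along each gene. Coordinates are 1-based on GRCh38.

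Of the 34 peaks, 2 were called, peak 4 of NOTCH2 and peak 2 of SPEN, both with a positive fold. That is 5.88% of the Notch peaks, against 8.23% of all peaks. A positive called fold was found for 5.74% of all peaks and a negative one for 2.49%, and with folds as deposited none of the 34 Notch peaks had a negative one. At the authors' unadjusted p of 0.05, 4 Notch peaks passed, 1 of them negative, against 19.9% of all peaks. After doubling of the authors' p, which may be one-sided, 2 Notch peaks were called, beside 6.36% of all peaks, and with folds recentred on the median of all peaks 2 were called, beside 7.78%. The recentred calls were 1 positive (NOTCH2 peak 4) and 1 negative (NOTCH2 peak 2), and SPEN peak 2 was not among them. The recentred p was one-sided and was not doubled, so recentred calls are more lenient than calls with p doubled. By gene, 2 of 10 had a called peak, beside 13.7% of all genes with a peak. The share of Notch peaks called was thus not above the background, and 2 genes of 10 are too few to read against it.

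The median log2 fold of the 34 peaks was 0.19 (quartiles -0.15 and 0.78), against 0.14 (quartiles -0.52 and 0.79) for all peaks. SPEN alone gave 9 of the 34 values, and with 1 value per gene (the median over its peaks) the median of the 10 genes was 0.0041. A median with 1 value per gene was not computed over all genes, so this value has no like background. Measured from the median of all peaks by peak, 20 of the 34 lay above it. Folds of single peaks ran from -1.59 to 2.33. Medians by role were -0.10 for the 10 receptor peaks, 0.02 for the 4 ligand peaks, 0.75 for the 8 peaks of the Mastermind coactivators and 0.54 for the 9 peaks of SPEN. The order of these medians was not tested.

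**Figure D1:**
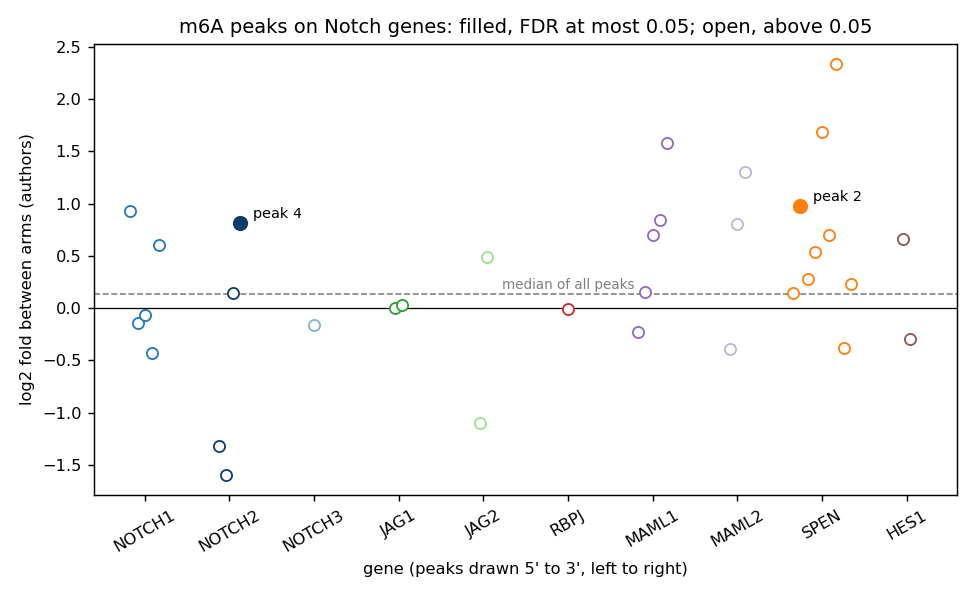
Log2 fold between the arms (y axis, the authors' values) of each of the 34 peaks on 10 Notch genes (x axis), drawn from 5′ to 3′ within a gene. Filled points are the 2 called peaks, at 0.81 for NOTCH2 and 0.97 for SPEN, and the dashed line is the median of all peaks at 0.14.

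NOTCH2 carried the receptor peaks that differed most between the arms, and its peaks had folds of both signs. In the authors' deposited table, peak 4 of NOTCH2 had a log2 fold of 0.81 (FDR 0.011), or 0.67 above the median of all peaks. This peak covers 960 bases at chr1:119914430-119915389 on the minus strand, centred 3357 bases before the annotated 3′ end. Its enrichment of 56.1-fold, the highest of the 34 peaks, exceeded that of 98.9% of all peaks per the authors' deposited table. Further 5′, NOTCH2 peaks 1 and 2 had folds of -1.32 (FDR 0.30) and -1.59 (FDR 0.052) per the authors' deposited table, and peak 2 missed the threshold narrowly. Peak 3, between them and peak 4, stood at 0.14 (FDR 0.64) per the authors' deposited table. Peak 2 spans 2 exon blocks within chr1:119923689-119925339, centred 12301 bases from the 3′ end, with an enrichment of 6.97-fold per the authors' deposited table. Peak 1 lies only 59 bases to the 5′ side of peak 2. It is weak, with 2.53-fold enrichment and a log10 peak p of -3.99 per the authors' deposited table. With the median of all peaks subtracted and calls made again, peak 4 was still called (FDR 0.046) and peak 2 was called as well, at -1.73 (FDR 0.033). Both recentred FDRs come from a one-sided p that was not doubled, and they lie near the threshold. The range of folds within NOTCH2, 2.40, was above that of 63.4% of the 606 genes with 4 peaks, whose median range was 2.01. The difference between NOTCH2 peaks was not tested.

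NOTCH1 had 5 peaks and none was called. Peaks 2 to 5 are centred 2833, 2338, 1469 and 809 bases from the annotated 3′ end. In the authors' deposited table their folds were -0.14, -0.07, -0.43 and 0.60, with FDRs from 0.58 to 0.68. Peak 1 of NOTCH1, 10952 bases from the 3′ end and split over 2 exon blocks, stood at 0.93 (FDR 0.51) per the authors' deposited table. Enrichment along NOTCH1 ran from 2.75-fold at peak 3 to 10.0-fold at peak 2 per the authors' deposited table, so no NOTCH1 peak passed the median of all peaks, 10.1-fold. The folds of NOTCH1 spanned 1.36, a smaller range than that of most of the 276 genes with 5 peaks (median 2.36).

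NOTCH3 had a single peak of 180 bases at chr19:15161405-15161584 on the minus strand, 2457 bases from the 3′ end. The authors' deposited table gives it an enrichment of 10.7-fold and a log2 fold of -0.16 (FDR 0.67). All 10 receptor peaks are centred in the 3′ part of their genes, at most 13951 bases from the annotated end, and the 5′-most of them is peak 1 of NOTCH2.

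**Figure D2:**
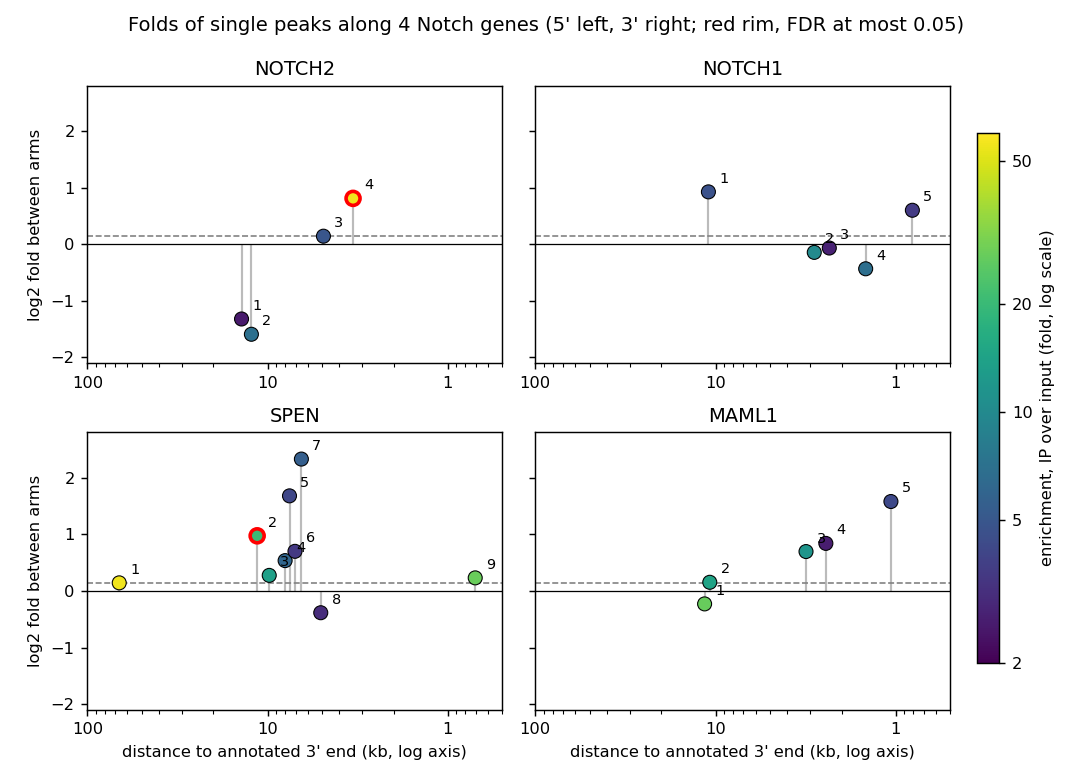
Log2 fold between the arms (y axis) against the distance of the peak centre to the annotated 3′ end (x axis, kb, log scale, 3′ to the right) for the numbered peaks of NOTCH2, NOTCH1, SPEN and MAML1. Colour gives the enrichment and a red rim the called peaks. On NOTCH2 the most enriched peak, peak 4, is positive while peaks 1 and 2 are at -1.32 and -1.59. On SPEN 8 of 9 peaks are positive, beside 55.3% of all peaks, and peak 1 lies only 0.003 above the median of all peaks.

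The ligand JAG1, whose peak 2 is among the most enriched peaks of the list, had log2 folds next to 0. The authors' deposited table gives peak 2 of JAG1 an enrichment of 46.4-fold, above 98.0% of all peaks, and a log10 peak p of -233. Its log2 fold was 0.04 (FDR 0.67) per the authors' deposited table. It covers 541 bases at chr20:10639393-10639933 on the minus strand, 1979 bases from the 3′ end. Peak 1 of JAG1 lies at the other end of the gene, centred 255 bases after the annotated start at chr20:10673639-10673849. Its log2 fold is listed as exactly 0 (FDR 0.74) per the authors' deposited table, a value shared by 262 of all peaks. Its enrichment of 20.3-fold comes with a log10 peak p of only -5.77 per the authors' deposited table, and 72 other peaks list this same pair of values. JAG1 had a range of folds of 0.04, smaller than that of all but 2.61% of the 3259 genes with 2 peaks.

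JAG2, the other Jagged ligand, had 2 neighbouring peaks with folds of opposite sign, and neither was called. Peak 2 of JAG2, the stronger, covers 838 bases at chr14:105142058-105142895 on the minus strand, 1482 bases from the 3′ end. It had an enrichment of 13.5-fold and a log2 fold of 0.49 (FDR 0.29) per the authors' deposited table. Peak 1, which lies 118 bases to its 5′ side, stood at -1.10 (FDR 0.63) with 5.34-fold enrichment and a log10 peak p of -3.30 per the authors' deposited table.

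RBPJ, the factor through which all Notch receptors act on DNA, carried 1 strong peak with a log2 fold close to 0. That peak covers 661 bases at chr4:26430723-26431383 on the plus strand, 4078 bases from the 3′ end. The authors' deposited table gives it 30.3-fold enrichment, above 93.4% of all peaks, and a log2 fold of -0.01 (FDR 0.67). It lies 0.15 below the median of all peaks.

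HES1, a repressor gene that Notch switches on, had a peak near each end and neither was called. Peak 1 of HES1, at chr3:194136178-194136634 on the plus strand, is split over 2 exon blocks and centred 194 bases after the annotated start. Peak 2, at chr3:194138076-194138523, is centred 432 bases before the 3′ end. In the authors' deposited table peak 1 had a log2 fold of 0.66 (FDR 0.29) with 3.68-fold enrichment. Peak 2 had -0.30 (FDR 0.47) with 9.05-fold enrichment per the authors' deposited table. The HES1 peak at the start is thus the weaker and the peak at the end the stronger of the pair, with log10 peak p of -7.39 and -130 per the authors' deposited table.

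Peak 1 of HES1 is the only Notch peak that reaches into the RefSeq promoter windows (250 bases before to 50 bases after each annotated start, GRCh38.p14), by 20 bases. The HES1 promoter is shown because it is the textbook site where RBPJ acts on this target. It is the plus strand of chr3:194135898-194136147, with the RBPJ core motif GTGGGAA in capitals, its first base 85 bases upstream of the start. RBPJ itself holds the motif in 1 of its 5 windows, at 2 places on opposite strands, and the stretches on the plus strand at chr4:26319661-26319691 and chr4:26319619-26319649 are given below it with the motif, or its reverse complement, in capitals.
HES1 promoter: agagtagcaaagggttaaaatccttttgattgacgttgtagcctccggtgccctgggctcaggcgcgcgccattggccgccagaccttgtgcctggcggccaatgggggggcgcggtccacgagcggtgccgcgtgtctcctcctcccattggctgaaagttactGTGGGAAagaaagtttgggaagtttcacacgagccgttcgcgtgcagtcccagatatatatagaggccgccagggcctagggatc
RBPJ window, forward motif: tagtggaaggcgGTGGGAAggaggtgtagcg
RBPJ window, reverse motif: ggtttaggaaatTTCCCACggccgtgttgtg

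Searched on both strands, GTGGGAA was found in a window of 3 of the 10 genes (30%; HES1, RBPJ and SPEN), beside 7.62% of all genes with a window. By window it was found in 3 of 14 (21.4%), beside 6.25% of all 35116 windows. With so few windows these shares are a description only. A match is a description of these letters and not of binding. The sequence of the peaks themselves was not used here, so the m6A motif was not counted.

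MAML1 and MAML2 encode Mastermind proteins, which bridge the Notch intracellular part and RBPJ to acetyltransferases. Of their 8 peaks 6 had a positive fold, beside 55.3% of all peaks. None was called, beside 8.23% of all peaks, and none passed an unadjusted p of 0.05, beside 19.9%. The 5 peaks of MAML1 fall in 2 groups by log10 peak p. It was -85.8 and -69 for peaks 1 and 2 and from -9.65 to -4.21 for the rest, per the authors' deposited table. Peaks 1 and 2 are centred 11499 and 10764 bases from the 3′ end, with enrichments of 27.2-fold and 14.4-fold and folds of -0.23 (FDR 0.61) and 0.15 (FDR 0.65) per the authors' deposited table. Peaks 3, 4 and 5 are centred 3148, 2443 and 1064 bases from the 3′ end, with folds of 0.70, 0.84 and 1.58 per the authors' deposited table. Their FDRs were 0.54, 0.47 and 0.37 and their enrichments 11.8-fold, 2.61-fold and 4.22-fold per the authors' deposited table. The less enriched 3′ peaks of MAML1 thus had the more positive folds, at p from 0.1 to 0.24 per the authors' deposited table.

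MAML2 had 3 thin peaks. In the authors' deposited table their folds were -0.39, 0.81 and 1.30, with FDRs of 0.68, 0.70 and 0.63. Peaks 2 and 3 of MAML2 adjoin at chr11:95979112-95979920 on the minus strand, 58 bases apart, and peak 1 lies 113227 bases further 5′. Although peak 3 of MAML2 had an enrichment of 17.4-fold, its log10 peak p was -4.87 per the authors' deposited table. The pair of peak p and enrichment listed for peak 2 recurs at 108 other peaks, and that of peak 3 at 100. A peak p and enrichment that many peaks share were also seen at peak 1 of JAG1. No other Notch peak shared its pair with more than 10 others.

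SPEN, a very large RNA-binding corepressor that also acts in silencing of the X chromosome, had the most peaks. Its 9 peaks cover 6846 exonic bases, and 39 genes (0.325%) had at least as many. Peak 2 of SPEN was called, with a log2 fold of 0.97 (FDR 0.022) and 20.3-fold enrichment per the authors' deposited table. It joins 2 exon blocks, of 38 bases and of 1912 bases, the latter at chr1:15928091-15930002 on the plus strand. With the median of all peaks subtracted, its fold was 0.83 and the call was lost (FDR 0.061).

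Peak 3 of SPEN begins 89 bases after peak 2 and is the stronger by peak p, yet stood at 0.28 (FDR 0.54) per the authors' deposited table. Peaks 4 to 7 of SPEN follow within chr1:15932341-15934081, each of 151 to 331 bases. Their folds were 0.54, 1.68, 0.70 and 2.33, with FDRs of 0.65, 0.33, 0.47 and 0.22, per the authors' deposited table. The fold of peak 7 is the largest of the 34 Notch peaks, and with an unadjusted p of 0.038 per the authors' deposited table it did not pass the FDR. Enrichment at these 4 peaks was 3.50-fold to 6.08-fold per the authors' deposited table, under the median of all peaks. Peak 8 had the one negative fold of SPEN, -0.39 (FDR 0.55), per the authors' deposited table.

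The strongest SPEN peaks are the 5′-most, peak 1, and the 3′-most, peak 9. The centre of peak 1 lies 26196 bases after the annotated start. Peak 1 joins 5 exon blocks from chr1:15848086 to 15876593, with 55.7-fold enrichment, above 98.8% of all peaks, and a log2 fold of 0.14 (FDR 0.63) per the authors' deposited table. The first block of this peak shares 62 bases with the antisense gene SPEN-AS1, and whether strand was used in counting was not given in the sources used here. Peak 9, centred 705 bases before the 3′ end at chr1:15939436-15940066, had 27.6-fold enrichment and a log2 fold of 0.23 (FDR 0.60) per the authors' deposited table. Within SPEN the folds ranged over 2.72, less than the median range of 3.34 among the 14 genes with 9 peaks.

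**Figure D3:**
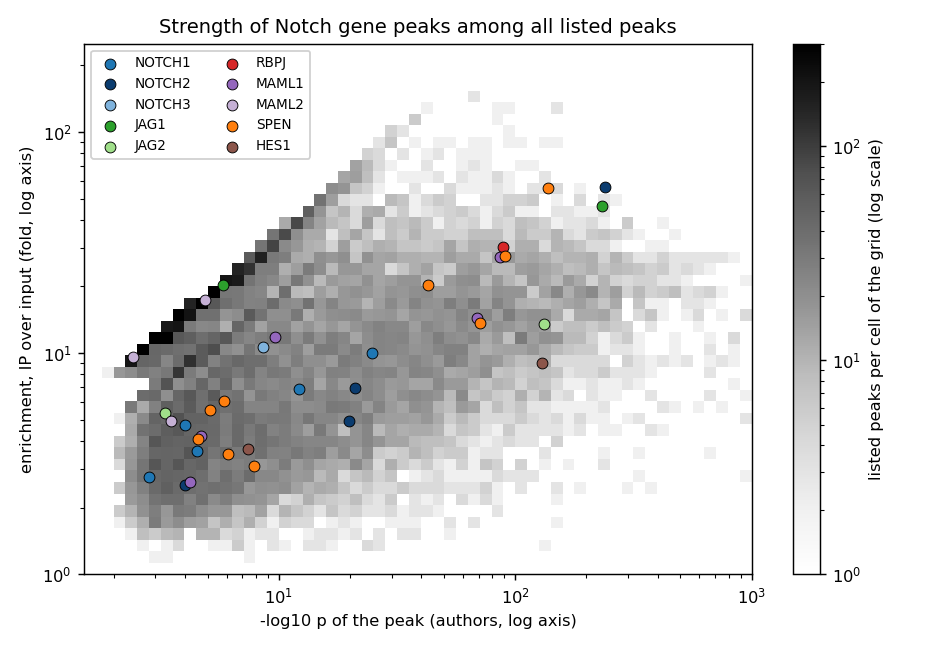
Enrichment of IP over input (y axis, log scale) against -log10 p of the peak (x axis, log scale) for the 34 Notch peaks (coloured by gene) over the density of 22523 listed peaks (grey). NOTCH2, SPEN and JAG1 each have a peak above 40-fold, and peak 1 of JAG1 and peaks 2 and 3 of MAML2 sit on the upper left edge of the cloud, where the same pairs of values recur.

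The 34 peaks had a median enrichment of 8.01-fold (quartiles 4.35 and 16.7), beside 10.1-fold (quartiles 4.96 and 16.3) for all peaks. The median log10 peak p was -8.18 and -8.20. Among the 10 Notch peaks with a log10 peak p of at most -50, folds ran from -0.30 to 0.81, and their median distance from the median of all peaks was 0.14. For the 3695 such peaks of the whole list that distance was 0.38. Of those 10 peaks 1 was called, peak 4 of NOTCH2, beside 23% of the 3695. Among the 11 Notch peaks with a log10 peak p above -5, folds ran from -1.32 to 1.68 and the median distance was 0.79, against 0.85 in the list. None of those 11 passed an FDR or an unadjusted p of 0.05, and 1.28% of the 7258 such peaks of the list were called. Of the 7 Notch peaks with a log2 fold beyond 1 in either direction, 5 had a log10 peak p above -5. The other two were peak 7 of SPEN and peak 2 of NOTCH2, at -5.11 and -20.9 per the authors' deposited table.

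By position, 3 of the 34 peaks (8.82%) were centred within 1000 bases of the annotated 3′ end, peak 5 of NOTCH1, peak 9 of SPEN and peak 2 of HES1. The share was 22.1% among the 20400 peaks of the list centred within their annotated gene. In 8 of the 10 genes the most enriched peak was centred 432 to 4078 bases from the 3′ end. The exceptions were MAML1, at 11499 bases, and SPEN, whose most enriched peak is the 5′-most. Of the 34 peaks 8 (23.5%) spanned more than 1 exon block, beside 30.4% of all peaks, and 0 shared a base with another listed peak.

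Other genes of the pathway were read from a list of 70. Of these 49 had a peak, 110 peaks in all, and 6 peaks (5.45%) on 6 genes were called, 4 positive and 2 negative, beside 8.23% of all peaks. By gene that is 12.2%, beside 13.7% of all genes with a peak. With folds recentred 3 were positive and 5 negative, beside 7.78% of all peaks called with either sign. Subtracting a positive median lowers every fold, and the recentred calls were not split by sign over all peaks. The median log2 fold of these 110 peaks was 0.15. The enzymes that cut the receptors had 1 called peak among 12, beside 8.23% of all peaks. Nicastrin (NCSTN), the substrate-binding subunit of γ-secretase, had a log2 fold of 3.20 (FDR 0.011) at peak 1 and -0.39 (FDR 0.64) at peak 2 per the authors' deposited table. PSEN2, which encodes a catalytic subunit, had 1 peak at 0.89 (FDR 0.49) per the authors' deposited table. APH1A, another subunit, had -1.14 (FDR 0.065) and 0.28 (FDR 0.63) per the authors' deposited table. The first of these APH1A peaks was called once folds were recentred (FDR 0.035). The surface proteases ADAM10 and ADAM17 had no called peak. Folds were 0.37, 1.21 and -0.85 for ADAM10 and -0.63 and 1.18 for ADAM17, with FDRs of 0.051 to 0.69 over both genes, per the authors' deposited table. The negative ADAM17 peak was called once recentred (FDR 0.045).

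Among 29 peaks of ubiquitin ligase and trafficking genes 1 positive and 1 negative were called, beside 8.23% of all peaks with either sign. NUMBL, whose product resembles the Notch antagonist NUMB, had a log2 fold of -1.27 (FDR 0.00068) at a peak of 10.0-fold enrichment per the authors' deposited table, and its other peaks stood at -0.49 and 1.79. NUMB itself had 1 peak, at -0.62 (FDR 0.51) per the authors' deposited table. The positive call is listed under ITCH, at 0.86 (FDR 5.4e-06) per the authors' deposited table. Only 9 of the 421 exonic bases of that peak lie inside the annotated ITCH gene. That peak shares exon blocks with a peak of the neighbouring gene DYNLRB1, itself called at 0.65 (FDR 5.6e-06) per the authors' deposited table. The assignment of the call to ITCH is therefore uncertain. FBXW7, the ligase that marks the Notch intracellular part for destruction, had 5 peaks with folds from -0.52 to 0 and none called, the smallest FDR being 0.65, per the authors' deposited table. MIB1, which ubiquitinates the ligands, had 3 uncalled peaks from -0.0023 to 0.79 per the authors' deposited table.

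The nuclear partners carried the other 3 calls. The coactivator genes of the list had 1 called among 23 peaks, and the corepressor genes had 1 positive and 1 negative call among 25. Over all peaks 8.23% were called, and differences between roles were not tested. In the authors' deposited table the deacetylase gene HDAC2 had a log2 fold of 2.18 (FDR 0.016) at 1 of 2 peaks. That HDAC2 peak had an enrichment of 1.83-fold and a log10 peak p of -2.76 per the authors' deposited table. TLE1, a Groucho corepressor that HES proteins recruit, stood at -1.30 (FDR 0.010) at its 5′-most peak per the authors' deposited table, centred 254 bases after the annotated start. The acetyltransferase gene CREBBP had 0.99 (FDR 0.041) at 1 of 4 peaks per the authors' deposited table, and this call was lost with folds recentred (FDR 0.092) and with p doubled (FDR 0.081). MAML3, the third Mastermind gene, had 6 peaks from -2.00 to 3.24 and none called, the smallest FDR being 0.059, per the authors' deposited table. Of the other target genes 6 had peaks, 12 in all, and none was called, beside 8.23% of all peaks. NRARP had peaks at -1.57 (FDR 0.16) and 0 (FDR 0.76) per the authors' deposited table. HES6 had 0.23 (FDR 0.67) and -1.48 (FDR 0.065) per the authors' deposited table, and its negative peak, named here after its value was seen, was called once recentred (FDR 0.041). HEYL, also named after its values were seen, had peaks at 0.15, -3.37 (FDR 0.081) and -0.71 per the authors' deposited table. The ligand gene DLL1 had 1 peak at -1.68 (FDR 0.48), per the authors' deposited table.

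**Figure D4:**
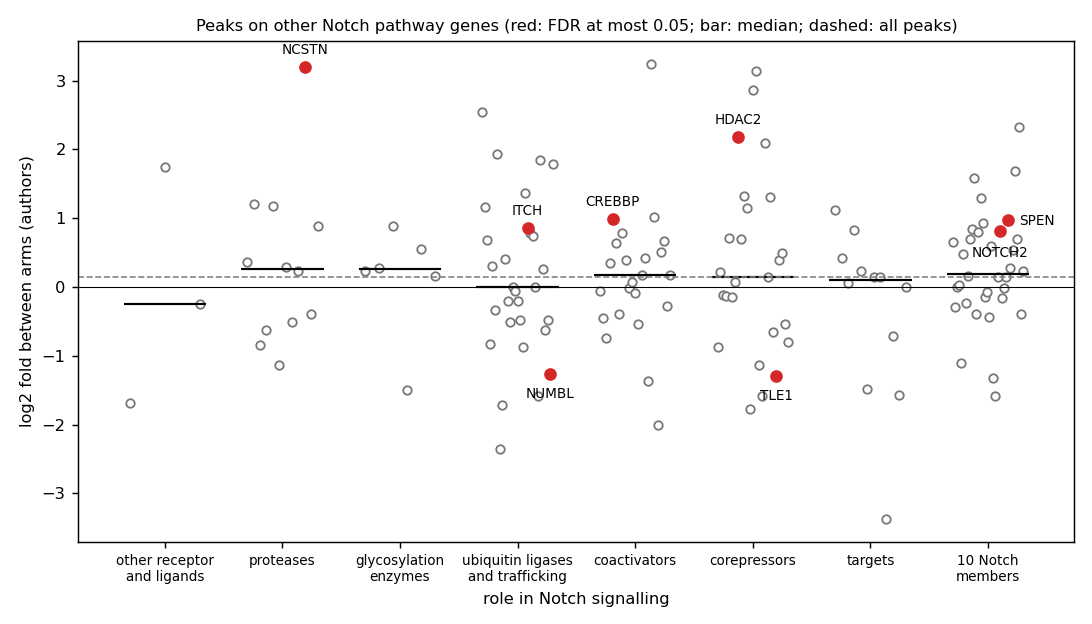
Log2 fold between the arms (y axis) of 110 peaks on 49 other Notch pathway genes by role (x axis), with the 34 peaks of the 10 Notch genes at the right. Red points are called peaks, bars are medians and the dashed line is the median of all peaks at 0.14. The 6 called peaks of the other genes (5.45%, beside 8.23% of all peaks) lie in 4 of the 7 roles. Of these called peaks NCSTN is highest at 3.20 and TLE1 lowest at -1.30.

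Among cell type markers, 6 of 8 for colorectal epithelium had a peak (CDH1, CDX2, EPCAM, KRT8, KRT18 and KRT19), and KRT20 and VIL1 had none. Of other cells' markers 1 of 5 fibroblast genes (COL1A1), 0 of 3 endothelial genes and 1 of 4 leukocyte genes (CD68) had a peak. A gene without a listed peak may still be expressed, and a listed peak depends on m6A as well as expression. These counts are a description and do not test the cell type.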

How the data were processed

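One peak list for the whole series was analysed. BWA 0.7.12, HOMER 4.9.1 and GRCh38 are named, without a role, per the submitters' processing notes, and the peak caller was not given in the sources used here. Per the file headers, the authors give each peak a p-value, its log10 value (read here as a score), and a fold enrichment, a ratio taken to be IP over input. The deposited comparison of the arms is a log2 fold with a p and FDR as log10 scores. How replicates entered that p was not given in the sources used here. Depth per library was not analysed. The sample attributes and the protocols in the labels name different anti-m6A antibodies.

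From these values members were selected by symbol, and distances to gene ends were taken from the GRCh38.p14 RefSeq gene table at the middle exonic base of a peak. Deposited starts count from 0, since 278 peaks begin at an annotated start on that reading and 6 otherwise, and 1 was added. Calls use the deposited FDR, adjusted over all 22626 peaks. Alternatives were FDR 0.01, unadjusted p 0.05, p doubled and adjusted again (the deposited p never exceeds 0.773, so it may be one-sided), loci counted once, a log10 peak p of at most -5 and, added after seeing the data, folds recentred. For the last the median fold was subtracted and a standard error taken from each fold and p, read as one-sided, where p was under 0.3, and predicted from peak p, enrichment and length elsewhere. The recentred p is likewise one-sided, in the direction of the recentred fold, and was not doubled. The scripts were tested on simulated data. Python 3.11.15, pandas 2.3.3, numpy 2.4.6 and scipy 1.17.1 were used.

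The members and the pathway list were chosen with earlier results of these data known. Named are the 10 members, pathway genes with a called peak (up to 12) and others fixed by role. Some genes of the pathway list are not reported here. No tests across libraries were run, since values per library were not analysed here. DYNLRB1, SPEN-AS1, HES6, HEYL and the cell type markers are named outside that rule.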

Additional observations from a re-analysis of the deposited data

How the results depend on the processing

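Called Notch peaks numbered 2 (both positive) with p doubled, with each locus counted once and with a log10 peak p of at most -5. At an FDR of 0.01 there were 0, and the share of all peaks called at that FDR was not computed. At an unadjusted p of 0.05 there were 4 of 34, of which 1 was negative (3 positive), beside 19.9% of all peaks. With folds recentred 1 was positive (NOTCH2 peak 4) and 1 negative (NOTCH2 peak 2). For other pathway genes, 6 calls (4 positive, 2 negative) became 2 at an FDR of 0.01 (1 positive, 1 negative). The positive call at that FDR is the peak listed under ITCH, whose assignment is uncertain. At an unadjusted p of 0.05 there were 21 calls among the 110 peaks of other pathway genes (13 positive, 8 negative), beside 19.9% of all peaks. Recentred there were 8, of which 5 were negative, beside 7.78% of all peaks called with either sign. Recentred calls were not split by sign over all peaks, so these splits have no like background. Doubling was not applied to the recentred p. The median of all peaks, 0.14, lies above both JAG1 folds, so relative to it JAG1 peak 1 stands at -0.14 and JAG1 peak 2 at -0.10. For 30 of the 34 peaks recentring changed neither sign nor call, and doubling p changed neither for all 34. The median fold of the Notch peaks, 0.19, was 0.052 less the median of all peaks and 0.0041 with 1 value per gene. Their median enrichment, 8.01-fold, was 9.49-fold with 1 value per gene and 11.8-fold at a log10 peak p of at most -5. No paired analysis was possible because values per library were not analysed here, and for that reason no replicate was left out. Depth is unknown, so what it limits was not measured. The 11 Notch peaks with a log10 peak p above -5 rest on the weakest evidence for a peak.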
